A study of Mus musculus with 22 samples.

Results

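The genes described here are 10 of the CC chemokine family, taken by name from the 55291 genes measured in mouse liver. They comprise 8 ligands (Ccl2, Ccl3, Ccl4, Ccl6, Ccl7, Ccl9, Ccl12 and Ccl24) and 2 receptors (Ccr1 and Ccr2), and each of the 10 was found in the files. The livers came from male WT C57BL/6 pups injected intravenously on postnatal day 1 and collected 36 hours later, so that strain, sex, genotype, age and time were shared by every group. In the 22 libraries, 4 livers had received PBS, 4 AAV9.empty (capsids with no transgene), 4 rAAV9.CB.EGFP, 3 rAAV9.CB.ST3GAL5, 3 rAAV9.CB.ST3GAL5.E332K and 4 rAAV9.Syn1.ST3GAL5.miR122BS. CB is the chicken β-actin promoter, which drives expression in most cell types, and the transgenes encode human ST3GAL5, the enzyme that makes the ganglioside GM3. The study calls rAAV9.CB.ST3GAL5 v1 and the construct with the neuronal Syn1 promoter and binding sites for the hepatocyte microRNA miR-122 v2; those short names, AAV9.EGFP and E332K are used below. The labels name E332K as a change in ST3GAL5 and say no more of that vector. In the paper, untreated neurons made from patient stem cells homozygous for E332K lacked the main gangliosides of the brain. The text of the paper does not describe an E332K vector. The study used the other groups to ask how the liver of WT pups reacts to the therapeutic vector, its capsid and another transgene.

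CC chemokines are small secreted proteins that draw leukocytes along concentration gradients by binding G protein-coupled receptors on the moving cells. In the liver they are made by Kupffer cells (the resident macrophages), endothelial cells, stellate cells and hepatocytes under stress, and the Ccl2 to Ccr2 axis is known for bringing monocytes from the blood into injured tissue. Ccl2, Ccl7 and Ccl12 are ligands of Ccr2; Ccl3, Ccl6, Ccl7 and Ccl9 bind Ccr1; and Ccl24 is an eotaxin that binds Ccr3 on eosinophils.

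In GENCODE vM21 on GRCm38, 7 of the 8 ligand genes lie on chromosome 11 in 2 groups. The monocyte chemoattractant genes Ccl2 (82035571 to 82037453), Ccl7 (82045712 to 82047525) and Ccl12 (82101845 to 82103400) are all on the plus strand. Farther along stand Ccl9 (83572919 to 83578636), Ccl6 (83587882 to 83593087) and Ccl3 (83647844 to 83649355) on the minus strand and Ccl4 (83662584 to 83664683) on the plus strand. Ccl24 is on chromosome 5 (135569937 to 135573049, minus), and the receptors Ccr1 (123962124 to 123968692, minus) and Ccr2 (124101950 to 124113557, plus) are on chromosome 9. All 10 are protein coding, and no exon of theirs overlaps an exon of another gene on either strand, which matters because no strand was named for the counting. Of the stretches of 31 bases in their transcripts, at most 3.75% (Ccl9) occurred in a transcript of another gene. Ccr1 shared 0.642% of its stretches with the related receptor genes Ccr1l1 and Ccr3.

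Promoter sequence was at hand for Ccl3, Ccl6, Ccl9, Ccl12, Ccr1 and Ccr2 (RefSeq, GRCm38.p6), 250 bases before to 50 after the start. The 120 bases just before the start are shown for 5 of them, and those of Ccr2 are left out because they overlap an annotated exon. No stretch was at hand for Ccl2, Ccl4 and Ccl7 of the cluster on chromosome 11. Promoter sequence was therefore not compared with the changes described below. Ccr1 lies outside that cluster. Capitals mark a match on either strand to the 10-base consensus site of NF-κB, a transcription factor activated by inflammatory cytokines, or to the AP-1 site TGANTCA, and the first line lies at chr9:123968693-123968812.
Ccr1: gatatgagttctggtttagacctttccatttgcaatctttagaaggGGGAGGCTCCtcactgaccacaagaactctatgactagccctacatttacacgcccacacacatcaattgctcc
Ccl9: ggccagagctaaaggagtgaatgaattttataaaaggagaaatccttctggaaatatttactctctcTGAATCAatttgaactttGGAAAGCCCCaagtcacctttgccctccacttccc
Ccl6: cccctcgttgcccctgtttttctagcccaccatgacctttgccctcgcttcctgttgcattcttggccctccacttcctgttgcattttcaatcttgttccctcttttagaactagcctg
Ccl3: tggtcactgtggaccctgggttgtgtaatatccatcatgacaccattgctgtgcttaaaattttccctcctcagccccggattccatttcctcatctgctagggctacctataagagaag
Ccl12: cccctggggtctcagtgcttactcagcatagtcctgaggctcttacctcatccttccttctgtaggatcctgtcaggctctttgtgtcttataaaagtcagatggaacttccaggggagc
The Ccl9 (chr11:83578637-83578756), Ccl6 (chr11:83593088-83593207) and Ccl3 (chr11:83649379-83649498) stretches are on the minus strand like that of Ccr1, and the Ccl12 stretch (chr11:82101725-82101844) is on the plus strand. The NF-κB consensus matched in Ccr1, with its first base at -74 from the start, and in Ccl9, at -35, and the AP-1 site matched in Ccl9 at -53; neither was found in the windows of the other 4. Among all 32851 promoters of the same length, 8.46% held the NF-κB consensus and 7.81% the AP-1 site. A match is a string of letters and no measured site, and no factor binding was measured in this study.

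Library totals ran from 17164502 to 24305788 expected counts. No 2 libraries of a group agreed within sampling noise. A gene of the Y chromosome, Gm47283, had no count in 9 libraries, among them all 3 of v1 and 1 of the 4 of AAV9.empty, and results that depend on it are given with the comparison below. The hepatocyte marker genes were present in every library, at a summed 74600 to 147000 CPM (counts scaled to a common library total). CPM values are scaled with TMM factors over the 22 libraries. The labels do not tie livers to litters or cages, and each p-value therefore reflects only how far these individual livers scattered.

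The v1 vector was compared with AAV9.empty to separate the transgene cassette from the capsid. Against AAV9.empty, 9 of the 10 members were higher and 1, Ccl9, was lower (edgeR's quasi-likelihood test, adjusted p of at most 0.05), and for each of the 10 the 3 v1 livers did not overlap the 4 AAV9.empty livers. Over all 14876 genes tested, 13.8% were called higher and 14.3% lower, and the same livers did not overlap, with v1 higher, for 20.1% of genes and, with v1 lower, for 17.6%. The median log2 fold change was 2.98 over the 10 members and 0.02 over all genes tested. Because the members were chosen with earlier results of these data known, their counts and median are a description and no independent test. Ccl12 was high enough to be tested only in comparisons that include v1. The rises spanned a wide range, from 1.97-fold for Ccr2 to 52.0-fold for Ccl7. In a bulk liver sample, more cells of a type and more RNA per cell cannot be told apart.

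**Figure D1:**
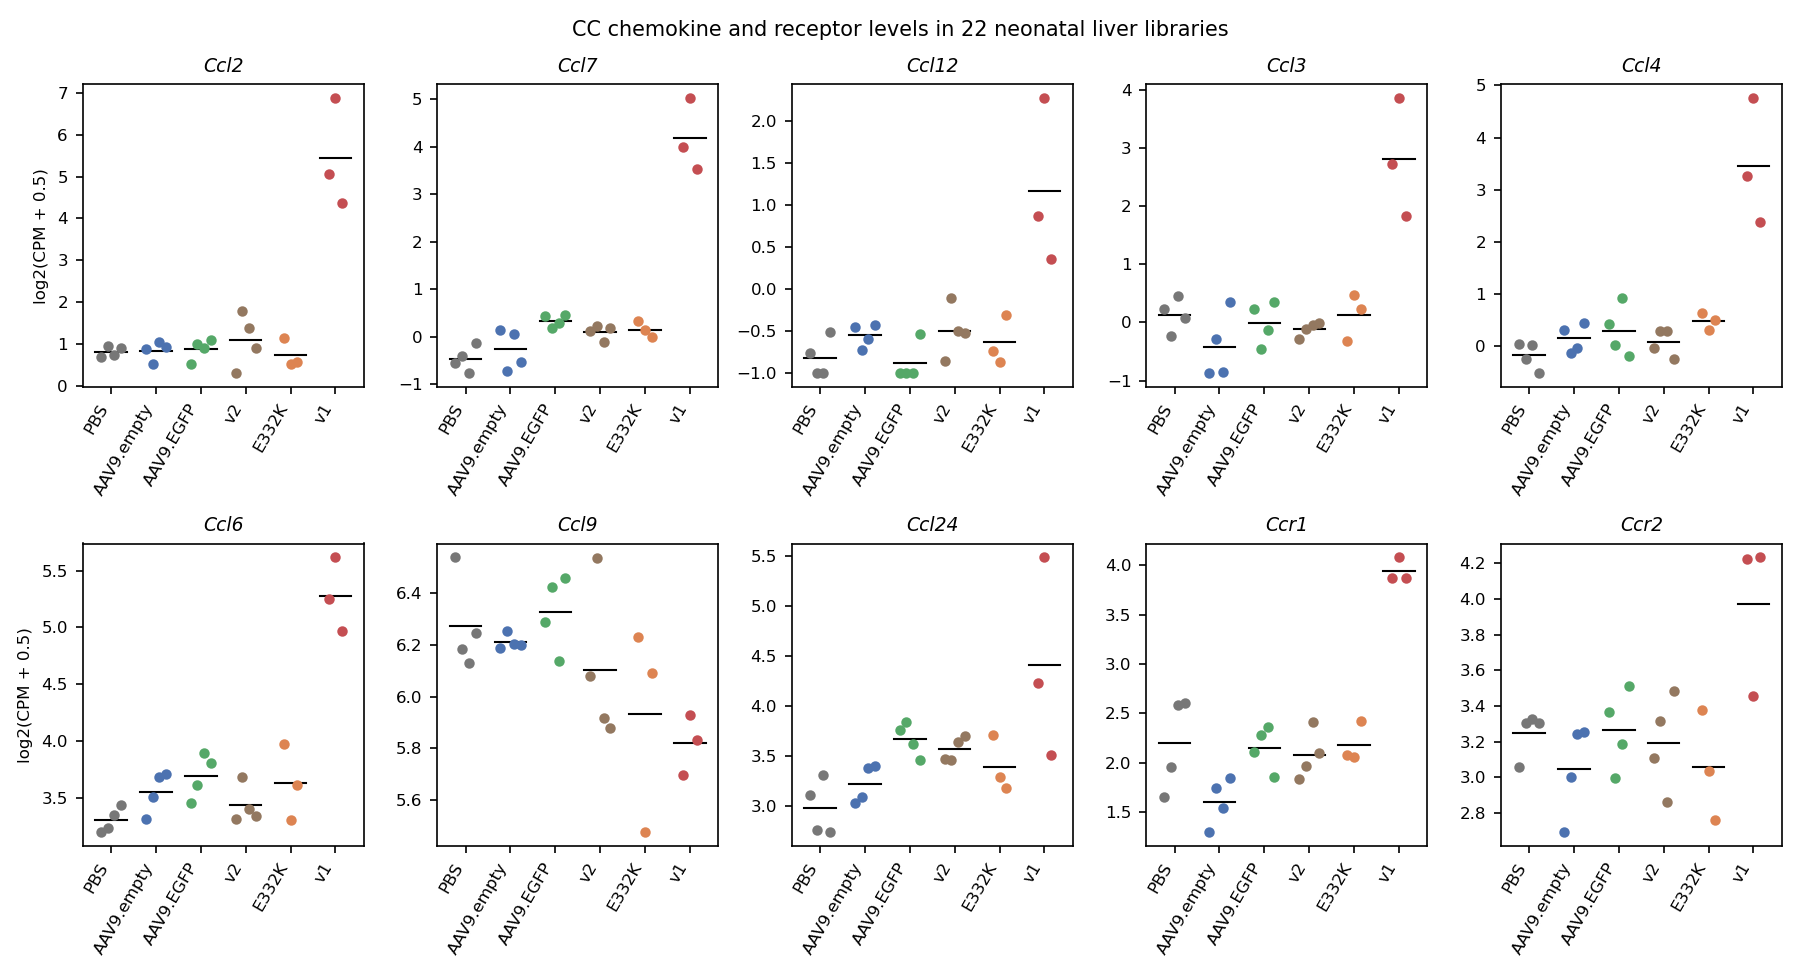
Level of each of the 10 members on a log2(CPM + 0.5) axis, with 1 point per liver library in 6 groups and a black line at the group mean of the plotted values. The 3 v1 libraries lie above all other libraries for Ccl2, Ccl7, Ccl12, Ccl3, Ccl4, Ccl6 and Ccr1, which does not hold for Ccl9, nor for 1 of the 3 v1 libraries in Ccl24 and in Ccr2.

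Ccl2, Ccl7 and Ccl12 are the ligands of Ccr2, and the 2 largest log2 fold changes of the 10 were those of Ccl7 and Ccl2. Ccl2, the main chemoattractant of inflammatory monocytes, stood at 32.8, 116 and 20.2 CPM in the v1 livers and at 1.35, 0.947, 1.56 and 1.40 CPM in the AAV9.empty livers. Every v1 liver lay above every other liver of the study, where the highest value was 2.97 CPM in a v2 liver. Its log2 fold change was 5.40 ± 0.612 (SE; edgeR, adjusted p = 0.000437), or 42.2-fold. Replicate 2 of v1 carried much of this size: without that liver the log2 fold change was 4.30 (19.7-fold), and Ccl2 was still called.

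Ccl7, a monocyte chemoattractant that also binds Ccr1, had 15.4, 32.0 and 10.98 CPM with v1 and 0.606, 0.105, 0.538 and 0.193 CPM with AAV9.empty. Its log2 fold change of 5.70 ± 0.508 (SE; edgeR, adjusted p = 0.000162) was the largest of the 10, and the AAV9.empty value rests on 2 to 13 counts a library. Ccl12, the third of these neighbours, was rare everywhere. It had 27, 86 and 19 counts with v1 (1.33, 4.31 and 0.782 CPM) and 0 to 7 counts in each of the other 19 livers. The v1 livers were again the 3 highest, with a log2 fold change of 3.45 ± 0.656 (SE; edgeR, adjusted p = 0.00475) over AAV9.empty, and of 2.43 without v1 replicate 2.

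Ccl3 and Ccl4 are the macrophage inflammatory proteins, which attract monocytes, macrophages and T cells. Ccl3 had 6.13, 13.9 and 3.04 CPM with v1 and 0.0467, 0.316, 0.0538 and 0.773 CPM with AAV9.empty, whose libraries held between 1 and 16 counts of it. The log2 fold change was 4.63 ± 0.734 (SE; edgeR, adjusted p = 0.002). Because the AAV9.empty counts are so few, it moved to 5.73 when AAV9.empty replicate 4 was left out and to 3.89 without v1 replicate 2, and the call was kept in both. Ccl4, its neighbour on the opposite strand, had 9.08, 26.5 and 4.69 CPM with v1 against 0.746, 0.421, 0.484 and 0.869 CPM. Here the log2 fold change was 4.37 ± 0.59 (SE; edgeR, adjusted p = 0.000984), and 3.40 without v1 replicate 2.

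Ccl6 and Ccl9, adjacent genes of the same strand whose products both bind Ccr1, went opposite ways. Ccl6 had 37.5, 48.6 and 30.8 CPM with v1 and 9.42, 10.9, 12.3 and 12.6 CPM with AAV9.empty, a log2 fold change of 1.77 ± 0.164 (SE; edgeR, adjusted p = 0.000182). The rise was present in every v1 liver, and the lowest of them, at 30.8 CPM, lay above the highest of the other 19 livers, at 15.2 CPM. Ccl9 had 51.4, 60.3 and 56.5 CPM with v1 and 72.4, 75.9, 73.2 and 73.0 CPM with AAV9.empty, and was 0.753 times as abundant (log2 -0.41 ± 0.0783, SE; edgeR, adjusted p = 0.00486). This call was lost with limma on log2(TPM + 1), where the log2 fold change was -0.33 (adjusted p = 0.127) and the median over all genes 0.10.

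Ccl24, the eotaxin, had 18.3, 44.3 and 10.9 CPM with v1 against 7.70, 7.996, 9.90 and 10.1 CPM with AAV9.empty. The groups are separated only by the gap between the lowest v1 liver and the highest AAV9.empty liver, and the log2 fold change was 1.44 ± 0.391 (SE; edgeR, adjusted p = 0.0233). It fell to 0.69 (adjusted p = 0.034) without v1 replicate 2, and the call was lost when AAV9.empty replicate 1, 2 or 3 was left out (adjusted p = 0.0679, 0.0653 and 0.0532). Nor was Ccl24 called with limma on log2(TPM + 1) (log2 fold change 1.17, adjusted p = 0.0789).

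Of the receptors, Ccr1, which is carried by monocytes, macrophages and neutrophils, gave the most even rise of all members. It had 14.1, 16.5 and 14.1 CPM with v1 and 1.96, 2.84, 2.42 and 3.09 CPM with AAV9.empty, a log2 fold change of 2.51 ± 0.17 (SE; edgeR, adjusted p = 6.03e-05). The coefficient of variation among the v1 livers was 9.04% for Ccr1 and 92.5% for Ccl2. Ccr2, which marks inflammatory monocytes, had 18.2, 10.5 and 18.3 CPM with v1 and 5.97, 7.52, 8.98 and 9.03 CPM with AAV9.empty. Its log2 fold change was 0.97 ± 0.217 (SE; edgeR, adjusted p = 0.0099), and the lowest v1 liver lay just below the highest of the other 19, an AAV9.EGFP liver at 10.9 CPM.

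**Figure D2:**
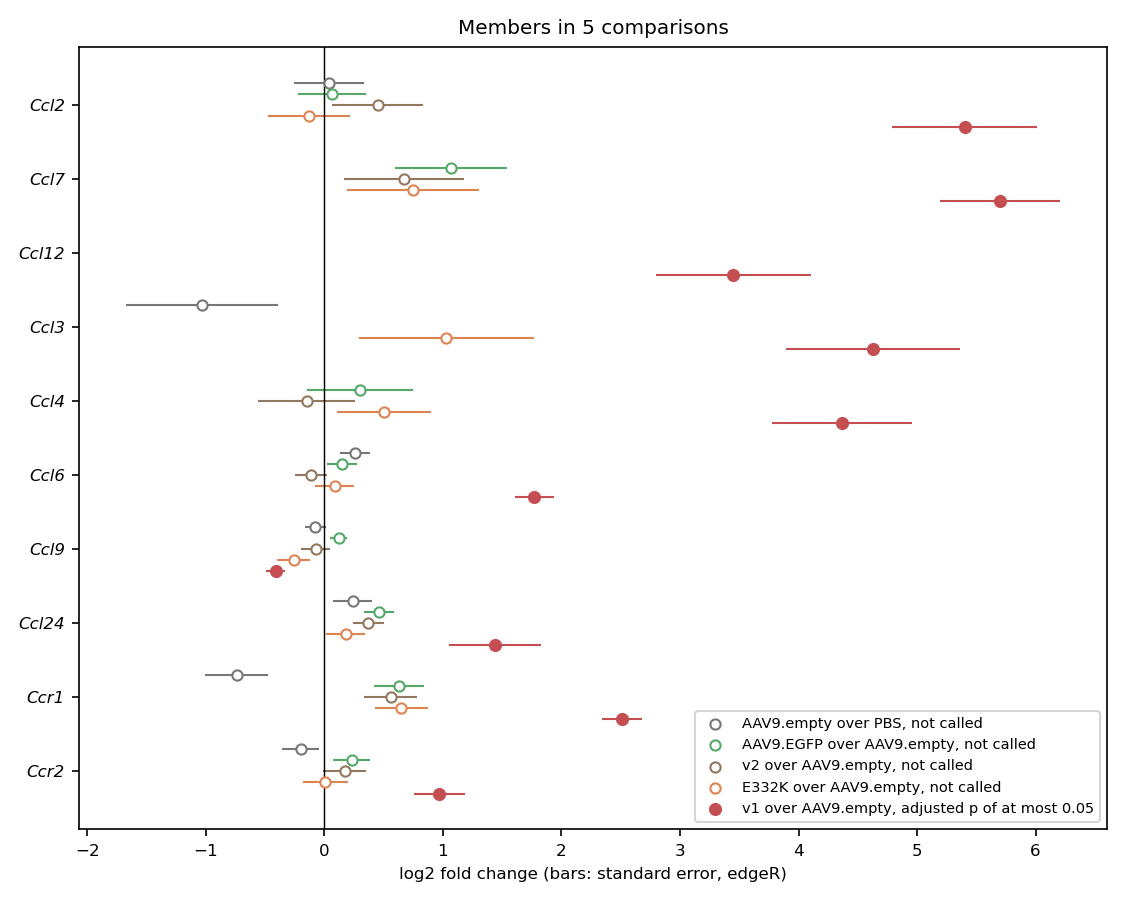
Log2 fold changes of the 10 members with standard errors in 5 comparisons, filled where the edgeR adjusted p was at most 0.05 and open where it was not; a member with no point was too low to be tested. The v1 points lie from -0.41 (Ccl9) to 5.70 (Ccl7), and each point of the other 4 comparisons is open and lies between -1.03 and 1.07.

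One result touches this whole comparison. Gm47283 was without a count in the 3 v1 livers and in AAV9.empty replicate 4 only, so a fit with its presence as a covariate sets v1 in effect against that 1 liver. In it, 3 of the 10 members and 4.13% of all genes tested were called. The 3 were Ccl6 (log2 fold change 1.61, edgeR adjusted p = 0.0257), Ccl7 (6.59, 0.02) and Ccr1 (2.24, 0.011). The other 7 kept their sign and were not called, with edgeR adjusted p from 0.0502 (Ccl2, log2 fold change 5.3) to 0.317 (Ccl24, 1.26). Between them lay Ccl4 (3.91, 0.0801), Ccl9 (-0.4, 0.102), Ccl3 (3.28, down from 4.63, 0.108), Ccl12 (3.08, 0.167) and Ccr2 (0.77, 0.245). In the same kind of fit 8 members were called for v1 over AAV9.EGFP (20.8% of all genes) and 6 over v2 (10.7%). The part in these results of whatever sets the livers without Gm47283 apart was not tested.

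None of the other vectors gave a called member against AAV9.empty in edgeR. With E332K, which has the same promoter and serotype as v1, 0 of 9 members tested were called, whereas 15% of all 14760 genes were; 1 member had an unadjusted p under 0.05, as had 30.4% of all genes, and DESeq2 also called 0. With AAV9.EGFP the count was 0 of 8 (3 at an unadjusted p under 0.05, as for 12.5% of all genes, and 0 by DESeq2) against 0.442% of all genes. With v2 it was 0 of 8 (2 at an unadjusted p under 0.05, as for 22.4% of all genes, and 0 by DESeq2) against 5.39% of all genes. AAV9.empty over PBS gave 0 of 7 (1 at an unadjusted p under 0.05, as for 12.8% of all genes, and 0 by DESeq2), where 0.311% of all genes were called. Median log2 fold changes of the members tested were 0.18 for E332K, 0.26 for AAV9.EGFP, 0.27 for v2 and -0.08 for AAV9.empty over PBS. These 4 comparisons and that of v1 share the AAV9.empty livers.

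In the 5 groups without v1, Ccl2 lay between 0.743 and 2.97 CPM over the 19 livers, with group means of 1.28 ± 0.153 (PBS, n = 4), 1.32 ± 0.261 (AAV9.empty, n = 4), 1.37 ± 0.293 (AAV9.EGFP, n = 4), 1.80 ± 0.959 (v2, n = 4) and 1.21 ± 0.431 CPM (E332K, n = 3; SD throughout). Those 5 groups all overlapped. Ccr1 was lowest with AAV9.empty, at 2.58 ± 0.496 CPM, and stood at 3.77 ± 0.76 with v2, 3.99 ± 0.675 with AAV9.EGFP, 4.08 ± 0.677 with E332K and 4.28 ± 1.48 with PBS. Each of E332K (3.72, 3.66 and 4.86 CPM) and AAV9.EGFP (3.82, 4.37, 4.64 and 3.12 CPM) lay entirely above AAV9.empty for Ccr1, yet neither difference was called (log2 fold change 0.65, edgeR adjusted p = 0.0748, and 0.63, 0.242). Livers wholly above AAV9.empty were found for 13.6% of all genes with E332K and for 3.72% with AAV9.EGFP.

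Ccl24 had 7.51 ± 1.56 CPM with PBS, 8.92 ± 1.25 with AAV9.empty, 10.1 ± 2.13 with E332K, 11.4 ± 1.02 with v2 and 12.3 ± 1.45 with AAV9.EGFP (SD). All 4 AAV9.EGFP livers and all 4 v2 livers were above the highest AAV9.empty liver, with log2 fold changes of 0.46 (edgeR, adjusted p = 0.157) and 0.37 (adjusted p = 0.123). With v2, 6.59% of all genes lay wholly above AAV9.empty. Ccl7 had 0.765 ± 0.108 CPM with AAV9.EGFP, above each AAV9.empty liver, and again the difference was not called (log2 fold change 1.07, edgeR adjusted p = 0.372). With the other groups Ccl7 had 0.231 ± 0.134 (PBS), 0.361 ± 0.248 (AAV9.empty), 0.578 ± 0.111 (v2) and 0.613 ± 0.132 CPM (E332K; SD).

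Ccl3 and Ccl4 stayed low in the 5 groups, with group means from 0.297 (AAV9.empty) to 0.622 CPM (E332K) for Ccl3 and from 0.404 (PBS) to 0.906 CPM (E332K) for Ccl4. Ccl12 was rarer still, from 0.0479 (AAV9.EGFP) to 0.221 CPM (v2). Ccl6 had 9.41 ± 0.757 CPM with PBS, 10.4 ± 1.36 with v2, 11.3 ± 1.45 with AAV9.empty, 12.1 ± 2.90 with E332K and 12.5 ± 1.75 with AAV9.EGFP (SD). Ccr2 had 7.88 ± 1.45 CPM with AAV9.empty, 7.96 ± 1.82 with E332K, 8.76 ± 1.69 with v2, 9.03 ± 0.81 with PBS and 9.21 ± 1.49 with AAV9.EGFP (SD). None of these differences from AAV9.empty was called where it could be tested.

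Ccl9 ranged from 44.0 CPM in an E332K liver to 92.5 CPM in a PBS liver. On the TPM scale it was called lower than AAV9.empty with E332K (limma, log2(TPM + 1): -0.62, adjusted p = 0.0497) and with v2 (-0.63, adjusted p = 0.0112), where edgeR on counts gave -0.26 (adjusted p = 0.243) and -0.07 (adjusted p = 0.776).

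The v1 livers were then set directly against each remaining group. Against PBS, 9 were higher and 1 lower (12.5% and 12.7% of all genes tested). Against E332K, 8 were higher and 0 lower (9.55% and 10% of all genes). Against AAV9.EGFP, 8 were higher and 1 lower (12.7% and 15.1% of all genes). Against v2, 8 were higher and 0 lower (12.1% and 11.4% of all genes). These comparisons share the v1 livers and are no independent repeats of each other.

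Compared with E332K, whose vector differs from v1 by the named change alone as far as the labels say, the 8 members were Ccl2, Ccl3, Ccl4, Ccl6, Ccl7, Ccl12, Ccr1 and Ccr2. However, Gm47283 was without a count in all 3 v1 livers and in 0 of the 3 E332K livers. The change in ST3GAL5 and whatever sets livers without Gm47283 apart therefore cannot be told apart here. The same split holds between v1 and PBS, where 0 of 4 PBS livers lacked it. The log2 fold changes were 5.53 ± 0.732 for Ccl2 (edgeR, adjusted p = 0.00405), 4.96 ± 0.469 for Ccl7 (0.00217), 3.88 ± 0.644 for Ccl4 (0.00805) and 3.62 ± 0.621 for Ccl3 (0.00882; SE). Leaving out v1 replicate 2 brought Ccl2 to 4.45, Ccl4 to 2.93, Ccl3 to 2.88 and Ccl12 from 3.83 to 2.82, each still called. Ccl12 lost its call when any 1 of the 3 E332K livers was left out (edgeR, adjusted p from 0.0531 to 0.0713). Ccr2 was 1.97-fold higher than with E332K (log2 0.98 ± 0.248, SE; edgeR, adjusted p = 0.0292) and was no longer called without v1 replicate 1 or 3 (adjusted p = 0.103 and 0.0554) or E332K replicate 2 or 3 (0.0851 and 0.107).

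The remaining comparisons gave sizes of the same order. For Ccl2 the log2 fold change was 5.44 over PBS, 5.32 over AAV9.EGFP and 4.98 over v2 (edgeR, adjusted p = 0.000201, 0.000725 and 0.00162), and 4.35, 4.24 and 3.88 without v1 replicate 2. For Ccl7 it was 6.38, 4.62 and 5.05 (edgeR, adjusted p = 3.34e-05, 0.000292 and 0.000262). For Ccl6 it was 2.03, 1.61 and 1.90 (edgeR, adjusted p = 3.69e-05, 0.000542 and 0.000424). Without v1 replicate 2, Ccl3, Ccl4 and Ccl12 also moved by over 1.5 times against each of these groups, and every one was still called, the least of them Ccl12 over v2 at 2.23 (edgeR, adjusted p = 0.0452). Ccl12 had no count in 2 PBS livers and in 3 AAV9.EGFP livers, and its log2 fold change over PBS went from 4.77 to 5.85 without PBS replicate 4.

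Of the receptors, Ccr2 had the smaller rises and lost its call more often. It was 0.77 higher over PBS, 0.74 over AAV9.EGFP and 0.83 over v2 on the log2 scale (edgeR, adjusted p = 0.0158, 0.0282 and 0.0253). The call against PBS was lost without v1 replicate 1 (adjusted p = 0.0741). Those against AAV9.EGFP and v2 were lost without v1 replicate 1 (both 0.102) or 3 (0.071 and 0.0688), without AAV9.EGFP replicate 1, 2 or 3 (0.0551, 0.0744 and 0.0703) and without v2 replicate 1 or 3 (0.0703 and 0.0583). Ccr1 was called in each comparison, with log2 fold changes of 1.77 over PBS, 1.87 over AAV9.EGFP and 1.97 over v2 (edgeR, adjusted p = 0.000762, 0.000292 and 0.000408).

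Ccl24 and Ccl9 were the members whose call depended on the control. Ccl24 was called against PBS (log2 fold change 1.68, edgeR adjusted p = 0.011) and AAV9.empty, but not against E332K (1.28, 0.0775), AAV9.EGFP (0.97, 0.0925) or v2 (1.10, 0.0685). Its v1 livers overlapped each of those 3 groups, and without v1 replicate 3, the lowest, Ccl24 was called against all 3 (adjusted p = 0.0118, 0.00858 and 0.0076). Without v1 replicate 2, the highest, its log2 fold change fell to 0.53, 0.23 and 0.34, and none was called. Ccl9 was lower than with PBS (-0.48, edgeR adjusted p = 0.011) and AAV9.EGFP (-0.54, 0.00466), and was not called against E332K (-0.14, 0.612) or v2 (-0.32, 0.181). The call against PBS was lost without v1 replicate 1 (adjusted p = 0.0579). With limma on log2(TPM + 1), Ccl9 was not called against PBS (-0.15, adjusted p = 0.656) or AAV9.EGFP (-0.36, 0.0841). On that scale its log2 fold change was 0.29 over E332K (limma, adjusted p = 0.343) and 0.30 over v2 (0.117). The medians over all genes there lay between 0.13 and 0.18. Over PBS, Ccl24 fell from 1.68 to 0.93 without v1 replicate 2 and was still called (edgeR, adjusted p = 0.0106). Its call over PBS was lost with a replicate block (edgeR, log2 fold change 1.37, adjusted p = 0.0601). It was also lost with limma on log2(TPM + 1) (1.37, adjusted p = 0.0542).

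Set against all 19 other livers at once, the 3 v1 livers were the 3 highest for 7 of the 10 members, which was so for 8.25% of all genes tested. The exceptions were Ccl9, Ccl24 and Ccr2. For Ccr1 the gap ran from 5.58 CPM in a PBS liver to 14.1 CPM, and for Ccl7 from 0.863 CPM in an AAV9.EGFP liver to 10.98 CPM.

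Levels per transcript length, in TPM (RSEM's estimate corrected for length and scaled to a common library total), allow the ligands to be ranked against each other. Ccl9, Ccl24 and Ccl6 were the 3 highest ligands, in this order of mean TPM, in each of the 5 groups other than v1. With AAV9.empty they stood at 46.7 ± 5.60, 17.5 ± 1.04 and 11.5 ± 1.45 TPM (SD, n = 4), and their libraries did not overlap. The next in order were Ccr2 at 2.79 ± 0.634 and Ccl2 at 2.62 ± 0.541 TPM, which did overlap. With v1 the order was Ccl2 (116 ± 104 TPM), Ccl24 (49.6 ± 40.4), Ccl6 (43.7 ± 10.5), Ccl7 (41.5 ± 22.4), Ccl4 (38.9 ± 32.4) and Ccl9 (37.1 ± 6.46; SD, n = 3). Neighbours in that order overlapped throughout, and replicate 2 set much of it. Without that liver the means were 56.0 TPM for Ccl2, 38.2 for Ccl6, 33.9 for Ccl9, 28.9 for Ccl7, 26.4 for Ccl24 and 20.5 for Ccl4.

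Summed over the 8 ligands, the level was 260, 621 and 179 TPM in the v1 livers and between 58.9 and 97.3 TPM in the other 19. Ccl9 made up 40.0% to 68.8% of the summed ligand TPM in those 19 livers and 14.3%, 7.0% and 17.1% in the v1 livers. The TPM of Ccl9 did not follow its CPM from liver to liver. It had 92.5 CPM and 36.7 TPM in PBS replicate 1, and 72.2 CPM and 61.5 TPM in PBS replicate 2. Its share and rank therefore depend on the TPM estimate. Ccl2 made up 1.92% to 7.10% in the 19 and 26.5%, 37.9% and 24.2% with v1.

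**Figure D3:**
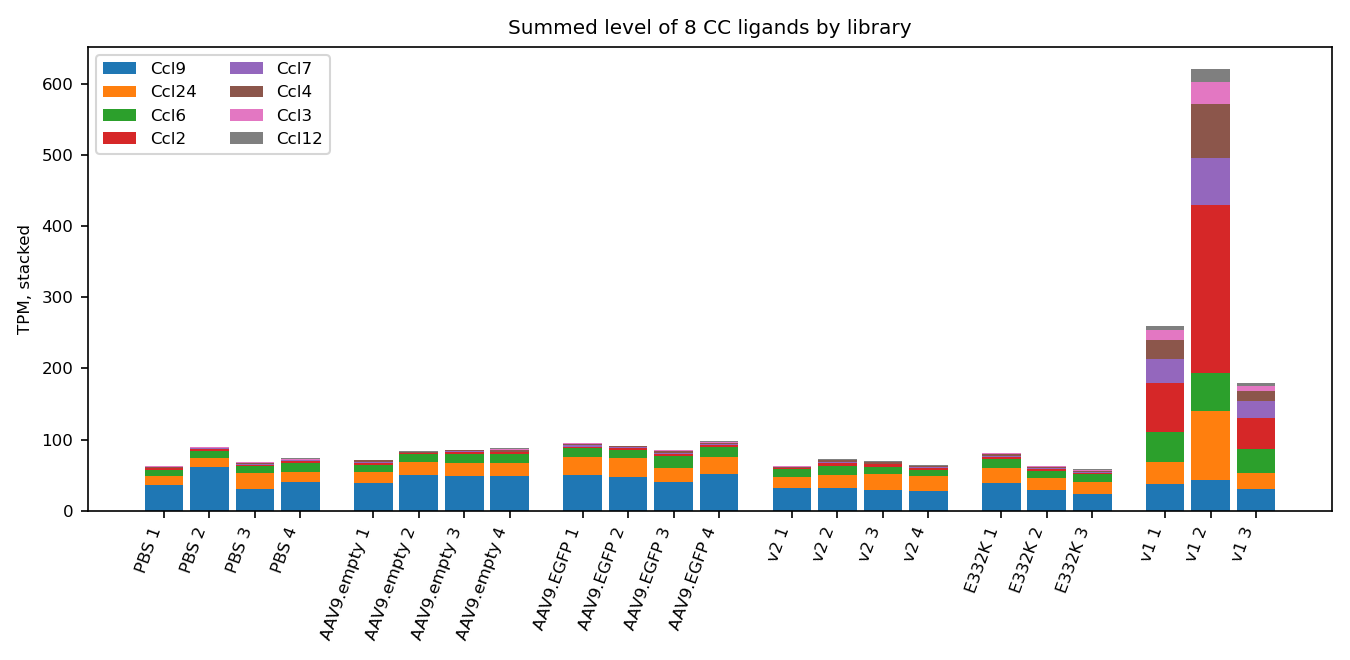
Stacked TPM of the 8 ligands in each of the 22 libraries, grouped by treatment, with 1 bar per library and 1 colour per gene. The v1 bars reach 260, 621 and 179 TPM against at most 97.3 TPM elsewhere, and Ccl9 (lowest segment) is the largest segment in each of the 19 libraries without v1.

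The v1 livers differed among themselves, and not by one factor for all members. Replicate 2 was the highest of the 3 for 9 members, at 4.38 times the mean of the other livers for Ccl2, 4.10 times for Ccl12, 3.85 times for Ccl4, 3.04 times for Ccl3, 3.03 times for Ccl24 and 2.42 times for Ccl7. The ratio was 1.42 for Ccl6, 1.17 for Ccr1 and 1.12 for Ccl9. Ccr2 went the other way, with replicate 2 lowest at 0.574 times the mean of the other livers. The cytokines Tnf and Il1b were also highest in replicate 2, at 3.83 times the mean of the others for Tnf and 3.69 times for Il1b. Whether they induced the chemokines in these livers was not tested.

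**Figure D4:**
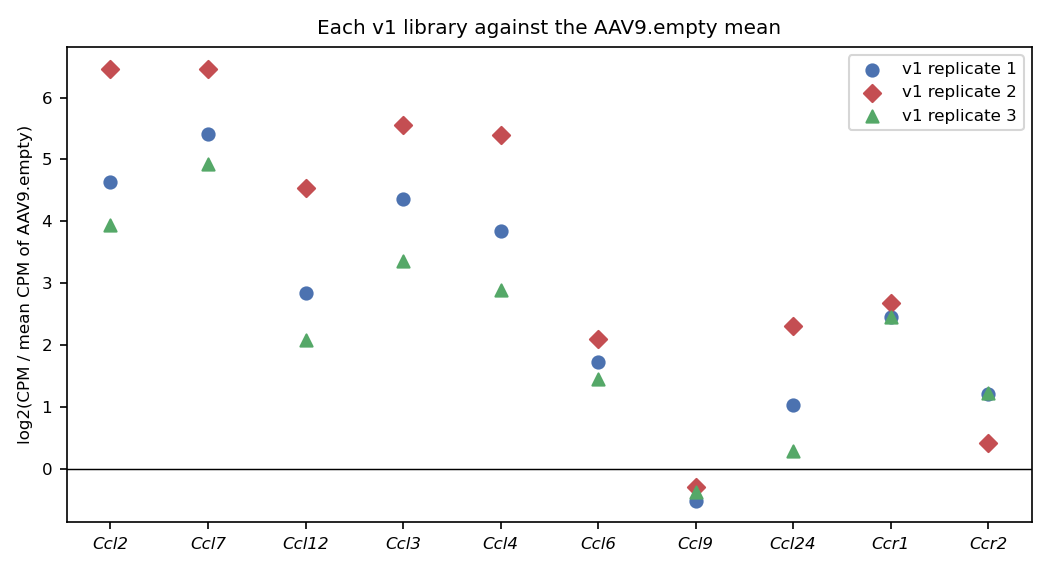
Log2 ratio of each v1 library's CPM to the mean CPM of the 4 AAV9.empty libraries, for the 10 members, with 1 symbol per v1 replicate. Replicate 2 lies highest for 9 members and lowest for Ccr2, and Ccr1 and Ccl9 differ least between the 3 livers.

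The rest of the family was read from lists of 15 other CC ligands and 14 other CC receptors measured. Of 7 other ligands tested for v1 over AAV9.empty, 5 were higher and 0 lower (13.8% and 14.3% of all genes), with a median log2 fold change of 3.25. That count and median leave out ligands low in both groups, which were not tested. Ccl1, without a count in AAV9.empty, entered through its v1 counts alone. Of the same list, 5 ligands were tested for E332K over AAV9.empty and 4 for v2. Ccl22, a ligand of Ccr4 made by dendritic cells and macrophages, had 8.44, 43.6 and 4.36 CPM with v1 against 0.840 to 1.24 CPM (log2 fold change 4.14, edgeR adjusted p = 0.00349; 2.58 without v1 replicate 2). Ccl20, the ligand of Ccr6, had 3.39, 4.21 and 0.494 CPM against at most 0.327 CPM (4.35, adjusted p = 0.00838; 5.52 without AAV9.empty replicate 1). Ccl8, another ligand of the monocyte chemoattractant group, had a mean of 0.654 ± 0.184 CPM against 0.0613 ± 0.0606 (3.25, adjusted p = 0.00638; 4.01 without AAV9.empty replicate 4). Ccl1, a ligand of Ccr8, had no count in the 4 AAV9.empty livers and was at least 22.8-fold higher with v1, taking 3 counts over that group as the floor (edgeR, adjusted p = 0.00362). Ccl25 and Ccl27a were tested and not called, and the remaining 8 of the 15 were too low to test. With Gm47283 as a covariate, Ccl22, Ccl20, Ccl8 and Ccl1 were not called (edgeR, adjusted p from 0.0853 to 0.209).

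Ccl5, a chemoattractant of T cells and monocytes, had another pattern. It had 16.8, 14.2 and 18.6 CPM with v1, 25.7, 18.9 and 14.4 CPM with E332K and 6.39, 7.84, 8.02 and 7.29 CPM with AAV9.empty. Both vectors lay wholly above AAV9.empty, by a log2 fold change of 1.15 for v1 (edgeR, adjusted p = 0.000461) and 1.41 for E332K (0.000276). Between v1 and E332K the groups overlapped and the log2 fold change was -0.25 ± 0.208 (SE; edgeR, adjusted p = 0.42). In edgeR, Ccl5 was the only gene of the members and of the CC ligand and receptor lists called with E332K over AAV9.empty, and unlike Ccl2 it was lowest of the v1 livers in replicate 2.

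Of 8 other receptors tested for v1 over AAV9.empty, 3 were higher and 0 lower (13.8% and 14.3% of all genes). They were Ccrl2, an atypical receptor that binds chemerin (12.7, 53.0 and 10.2 CPM against 3.55 to 5.83; log2 fold change 2.48, edgeR adjusted p = 0.00785), Ccr7, the receptor that leads dendritic cells and T cells to lymph nodes (2.02, 0.031), and Ackr1, a scavenger of chemokines on venules and red cells (0.63, 0.00769). Without v1 replicate 2 the log2 fold change was 1.34 for Ccrl2, still called, and 0.70 for Ccr7, which was not (edgeR, adjusted p = 0.117). Ccr7 was also not called without any 1 of the 4 AAV9.empty livers (adjusted p from 0.071 to 0.0797). With Gm47283 as a covariate none of the 3 was called (adjusted p from 0.169 to 0.271). Ccr3, the receptor of Ccl24, stood at 0.655 ± 0.0689 CPM with v1 and 0.691 ± 0.228 CPM with AAV9.empty (SD), and was not called (-0.11, edgeR adjusted p = 0.861).

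**Figure D5:**
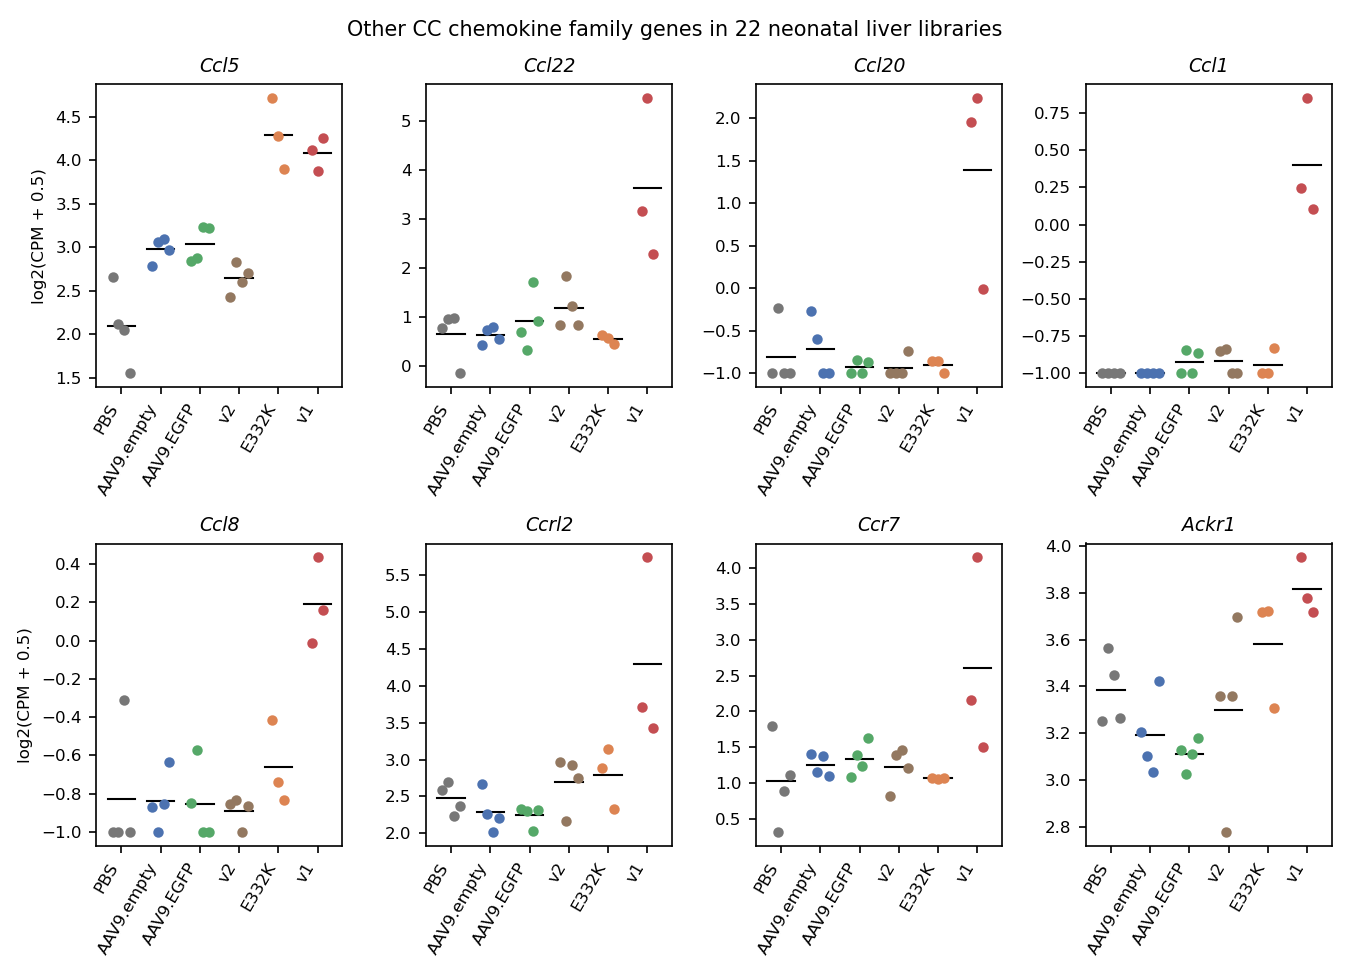
Levels of 8 other genes of the CC family on a log2(CPM + 0.5) axis, with 1 point per library in 6 groups and a line at the group mean. Ccl5 is raised with both E332K and v1, at 14.4 to 25.7 and 14.2 to 18.6 CPM, whereas the 3 v1 libraries are the highest for Ccl22, Ccl20, Ccl1, Ccl8 and Ccrl2; for Ccr7 and Ackr1 the lowest v1 library lies below the highest of the other libraries.

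A list of 12 cytokines that induce CC chemokines was read beside them. Of 6 tested for v1 over AAV9.empty, 5 were higher, against 13.8% of all genes tested: Il1b (log2 fold change 4.01, edgeR adjusted p = 0.0011), Tnf (3.66, 0.00262), Il6 (2.51, 0.031), Il1a (2.13, 0.00394) and Csf1 (1.09, 0.0224), with a median of 2.32 over the 6. The count and median leave out cytokines of the list that were too low to test. In each comparison with v1, 6 were high enough to be tested, and in each without v1, 5 were. Tnf had 5.89, 18.2 and 3.62 CPM with v1 against 0.269 to 1.32 CPM with AAV9.empty. Without v1 replicate 2 the log2 fold change was 3.08 for Il1b and 2.70 for Tnf, both still called, and 1.23 for Il6, which was not (edgeR, adjusted p = 0.192). The Il6 call was also lost without AAV9.empty replicate 1, 2 or 3 (adjusted p = 0.0838, 0.0791 and 0.079), and that of Csf1 without any 1 of the 4 AAV9.empty livers (0.0519 to 0.0626). With Gm47283 as a covariate none of the 5 was called (adjusted p from 0.0795 for Il1b to 0.428 for Il6). With E332K over AAV9.empty, 0 of 5 were higher and 1 was lower, Csf1 (-0.53, edgeR adjusted p = 0.00655). Of 15 genes of signalling below chemokine receptors, 2 were higher with v1 and 0 lower, a share near the 13.8% of all genes called higher. Pik3r5, the regulatory subunit of a kinase that chemokine receptors activate, rose from 4.71 ± 0.871 to 12.7 ± 1.49 CPM (SD; log2 fold change 1.41, edgeR adjusted p = 0.000564), and Rac2, a GTPase of leukocyte movement, rose by 0.46 (0.00606). With E332K the count was 0 higher and 1 lower of 15, Gnai3 (-0.37, edgeR adjusted p = 0.0112).

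Markers of leukocytes moved in the same livers, where 13.8% of all genes tested were called higher and 14.3% lower with v1 than with AAV9.empty. Of 8 monocyte markers, 7 were higher with v1 than with AAV9.empty and 0 lower, and their summed level was 650 to 697 CPM with v1, 390 to 435 CPM with AAV9.empty and 385 to 514 CPM with E332K. Examples are Ly6c2 (log2 fold change 0.75, edgeR adjusted p = 0.000192) and Itgam (1.09, 8.93e-05). Neutrophil markers were higher for 9 of 10 and lower for 0, with sums of 2240 to 2610 CPM against 1510 to 1650 CPM. The AAV9.EGFP sums of 1630 to 2300 CPM overlapped those of v1. Set directly against the other groups, v1 had higher neutrophil markers for 8 of 10 over PBS, 6 over v2, 4 over AAV9.EGFP and 4 over E332K, and lower for 0. Among all genes, 12.5%, 12.1%, 12.7% and 9.55% were called higher in those comparisons. With E332K over AAV9.empty, 2 of 8 monocyte markers and 4 of 10 neutrophil markers were also higher and 0 lower, the latter with sums of 1830 to 2270 CPM. Of all 14760 genes tested there, 1168 were called higher and 1046 lower. Kupffer cell markers were higher for 0 of 8 and lower for 5, among them Clec4f (-1.13, edgeR adjusted p = 9.64e-05) and Csf1r (-0.81, 0.00199), with sums of 681 to 1050 CPM against 865 to 1260 CPM. Kupffer cell markers were also lower than with AAV9.empty for 4 of 8 with v2 and 3 of 8 with E332K, and v1 against v2 gave 2 higher and 3 lower. Of all 14558 genes tested for v2 over AAV9.empty, 364 were called lower. For v1 against v2, 12.1% of all genes were higher and 11.4% lower. Markers of T and NK cells had sums of 87.9 to 104 CPM against 40.4 to 55.5 CPM, with 4 of 7 tested higher and 1 lower. Of 7 eosinophil markers tested, 1 was higher and 0 lower, a share near that of all genes called higher, with sums of 19 to 40.2 CPM against 22.8 to 28.6 CPM. Hepatocyte markers were lower for 7 of 8 and higher for 1.

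No marker of these lists was without a count in a group, the median over all genes tested was 0.02, and the part of cell numbers in the chemokine values was not tested. In v1 replicates 1, 2 and 3 the summed levels were 658, 697 and 650 CPM for monocyte markers, 2570, 2610 and 2240 for neutrophil, 800, 1050 and 681 for Kupffer cell, 29.3, 40.2 and 19 for eosinophil, 76.4, 131 and 72.5 for B cell and 91.6, 87.9 and 104 for T and NK cell markers. Replicate 2, where Ccl2 was highest, was the highest for the first 5 of these lists. That liver was also the highest for hepatocyte (74600, 89900 and 86100 CPM) and stellate cell markers (466, 494 and 490). For endothelial cell markers (267, 302 and 318 CPM) it lay in between, and for erythroid cell markers (3340, 3090 and 3360) it was the lowest.

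As a description of pattern over the 22 libraries, the 13507 genes with a mean of at least 1 CPM were ranked by Pearson r of log2(CPM + 0.5) with 4 members. Closest to Ccl2 were Fgf23 (r = 0.98), a hormone of phosphate balance, Ralgds (0.978), an exchange factor of Ral GTPases, and Ch25h (0.975), which makes an oxysterol. Over the 19 livers without v1 these fell to 0.0526, 0.22 and 0.0933, so their likeness to Ccl2 lay in the contrast of v1 with the rest. Closest to Ccr1 were Lilr4b (0.951), Cxcl1 (0.948), a neutrophil chemokine, and Csf3r (0.934), a granulocyte growth factor receptor, and here r was 0.763, 0.752 and 0.655 over the 19. Closest to Ccl24 were Traf1 (0.901), Gja4 (0.871) and Dcn (0.866), with 0.635, 0.732 and 0.766 over the 19. Ccr2 had weaker neighbours in Cd300lb (0.839), Pmaip1 (0.794) and Card9 (0.786), with 0.512, 0.628 and 0.497. All of these values share libraries and their depth.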

How the data were processed

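Liver RNA of 22 pups was enriched with oligo(dT) beads, depleted of ribosomal RNA and made into libraries with a kit that does not keep strand. The authors trimmed reads with Trimmomatic, mapped them to mm10 with STAR and estimated each gene with RSEM against GENCODE transcripts; versions and the GENCODE release are not given in the sources used here. The expected counts, as deposited, are RSEM estimates not scaled for depth, and 5.69% of them were not whole. The TPM values, also deposited by the authors, are corrected for length and scaled per library. Of 142604 transcript identifiers in the files, 140751 were in GENCODE vM21 with their version, and this release gave the positions. All columns belonged to the 22 samples.

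Expected counts were rounded and fitted in edgeR 4.0.16 (R 4.3.3), with TMM factors, filterByExpr and the quasi-likelihood F-test on the livers of the 2 groups compared. P-values were adjusted by Benjamini-Hochberg over all genes tested, and genes were called at 0.05 or less. Alternatives were a fold change of at least 2, DESeq2 1.42.0 and its size factors, keeping every gene with a count, a minimum mean count of 10, one fit over all 6 groups, a replicate block, limma 3.58.1 on log2(TPM + 1) and log2(TPM + 0.1) for genes averaging 1 TPM or more (the second also for all genes), Gm47283 as a covariate, and each liver left out. A fold against a group without counts was taken against 3 counts over the group.

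The members, lists and tests were chosen with earlier results of these data known. Named genes were the 10 members, in every comparison; up to 4 called genes of smallest adjusted p from each list of other ligands and receptors and up to 3 from each list of inducing cytokines and signalling genes; and the 3 genes most like Ccl2, Ccl24, Ccr1 and Ccr2. Ccl20, Ccl25, Ccl27a, Ccr3, Il6 and Csf1, and the markers given as examples, were named after their values were seen. Counting error grows below about 10 counts, which limits Ccl3, Ccl4, Ccl7 and Ccl12 outside v1. One receptor of the lists is not reported here by name.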

Additional observations from a re-analysis of the deposited data

Results flagged for a closer look

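In the 40 sets of 4 livers examined (10 members in 4 groups of 4), a liver stood far from the other livers of its group in 2, and chance alone sets such a liver apart in about 1 in 20 sets. Ccl12 was at 0.192 CPM (4 counts) in AAV9.EGFP replicate 4 and at 0 in the other AAV9.EGFP livers. Without that liver, the log2 fold change of v1 over AAV9.EGFP for Ccl12 went from 5.15 to 8.39 against a group with no count, and is then no bound. Ccr2 was at 7.82 CPM in PBS replicate 1 and at 9.38 to 9.55 CPM in the other PBS livers. The v1 group, with 3 livers, was too small for this rule.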

How the results depend on the processing

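Of 2712 values for single genes under an alternative, 2444 kept their side of the threshold, 255 lost it and 13 gained it; 37 had another sign than in the fit reported, none of them a called value. The number of members called moved by over 1.5 times in 6 cases. For v1 over AAV9.empty it was 3 of 10 with Gm47283 as a covariate, where v1 is compared in effect with 1 liver. For E332K over AAV9.empty it was 1 (lower) with limma for pseudocounts of 1 and of 0.1 TPM, and for v2 over AAV9.empty 1 (lower) with both and with 0.1 TPM and no filter; each is Ccl9, and the cause was not tested. The covariate could not be separated from the groups for v1 over PBS or over E332K, and these fits were not run. Leaving out 1 liver gave 9 to 10 members called for v1 over AAV9.empty, 8 to 10 over PBS, 6 to 8 over E332K, 8 to 9 over AAV9.EGFP and 7 to 8 over v2, and 0 in the other 4 comparisons.

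Livers of the same replicate number did not deviate together: their correlations ran from -0.169 to 0.282, and in no comparison were all above 0.1. The numbers were therefore not taken as pairs. With the replicate number as a block, 9 members were called for v1 over AAV9.empty, 7 over PBS, 8 over E332K, 9 over AAV9.EGFP and 7 over v2, and 0 in the other comparisons. On the log2(TPM + 1) scale in limma the median over all genes was 0.10 for v1 and -0.10 for E332K over AAV9.empty, where edgeR gave 0.02 and -0.0024.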
